A study of Homo sapiens with 12 samples.

Results

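The experiment described here is the knockdown of ACO1 in MiaPaCa-2, an established cell line grown from a human pancreatic carcinoma. Its members are the 3 libraries of cells given small interfering RNA (siRNA) against ACO1, called siACO1, and the 3 libraries of cells given a control siRNA, called siControl, chosen by the label of each sample. They make up 6 of the 12 libraries of the series, whose other libraries come from the same line after siRNA against SLC25A1 (siSLC25A1) or ACLY (siACLY), 3 libraries each, and are used here for direct contrasts. An siRNA is a short RNA duplex that directs the cleavage of a matching transcript. All 4 groups are MiaPaCa-2 cells that received an siRNA and differ in its target, and transcripts with a poly(A) tail were sequenced from every sample. The labels do not state the culture medium, when cells were harvested after transfection, how many siRNAs were used for a target or what their sequences were. Since the labels do not say that the replicates came from separate cultures either, p-values measure only the spread between these samples.

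ACO1 encodes cytosolic aconitase, also known as iron regulatory protein 1. With an iron-sulfur cluster the protein turns citrate into isocitrate in the cytosol, and without the cluster it binds iron-responsive elements, short RNA hairpins in the untranslated regions (UTRs) of iron genes. Binding in the 5′ UTR, as in the ferritin transcripts, blocks translation, and binding in the 3′ UTR of the transferrin receptor transcript protects it from degradation. The products of SLC25A1 and ACLY lie next to aconitase in citrate handling, as the mitochondrial citrate exporter and the enzyme that makes acetyl-CoA from citrate in the cytosol.

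Library totals ran from 28641881 to 36466251 counts in siControl and from 24159424 to 31315425 in siACO1, and 16197 of the 70116 genes listed had enough counts to be tested. VIM lay between 3472 and 3841 CPM (the count as a share of the library total, scaled between libraries by trimmed mean of M values, TMM) in all 6 libraries, and KRT8 and KRT18 were at or above 750.2 CPM, all 3 of which mark the line. The 14 marker genes of fibroblasts, endothelium, immune cells and pancreatic acinar or islet cells summed to between 0.143 and 0.416 CPM in siControl and between 0.098 and 0.362 CPM in siACO1, and 0 of them passed the filter on low counts. PTPRC, CD3E, LUM, PRSS1, CELA3A, CPA1 and INS had no count in any of the 6 libraries. In bulk RNA, fewer cells of a type and less RNA per cell cannot be told apart, and values relative to the library total cannot show whether a cell holds more or less RNA in all.

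SiACO1 replicate 3 stood apart from its replicates, and it did so with transcript length. The chi-square of 2 libraries divided by its degrees of freedom, which is near 1 where only sampling noise separates them, was 2.28 for siACO1 replicates 1 and 2, but 11.38 and 12.15 for replicate 3 against each of them, and 2.71 to 3.64 within siControl. Among 9818 genes that averaged 5 CPM or more, the median log2 difference of replicate 3 from the control mean was 0.118 for transcripts under 1000 bases and -0.113 for those of 5000 bases and over. Replicates 1 and 2 ran the other way, from -0.086 and -0.088 in the shortest class to -0.007 and -0.001 in the longest. Spearman's rho of each library's deviation from the other siACO1 libraries with length was 0.369, 0.44 and -0.548 for replicates 1, 2 and 3, a description across genes that are not independent. The values of replicates 1 and 2 are taken against a mean that holds replicate 3. Within siControl the same rho was -0.199, 0.085 and 0.113. RNA quality values are not in the labels, and what set this library apart was not tested, so results that rest on it are given with and without it.

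**Figure D1:**
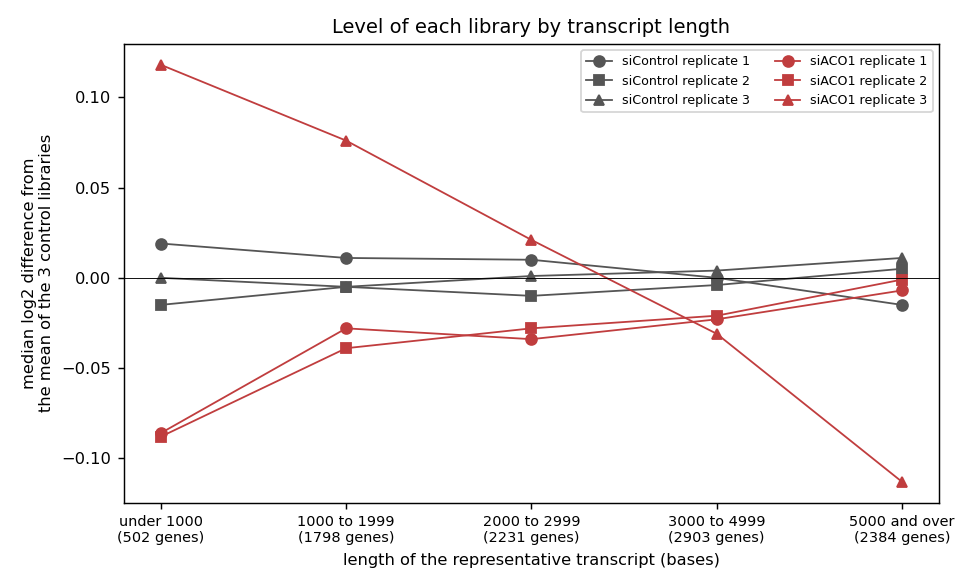
Median log2 difference of each library from the mean of the 3 control libraries (vertical axis) in 5 classes of transcript length in bases (horizontal axis, with the number of genes), for siControl (grey) and siACO1 (red). The line of siACO1 replicate 3 falls from 0.118 to -0.113 from the shortest to the longest class, and the other 2 siACO1 libraries lie between -0.088 and -0.001.

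The targeted transcript was examined first. ACO1 (ENSG00000122729.19, chr9:32384603-32454769, GENCODE 29 on GRCh38, protein-coding, plus strand) was at 44.4, 43.9 and 46.8 CPM in the siControl libraries and at 1.57, 2.05 and 1.41 CPM in the siACO1 libraries. All siACO1 libraries were far below all controls, at a mean of 3.72% of the control level (edgeR, log2 fold change -4.74 with SE 0.09, adjusted p 2.43e-25). In siACLY and siSLC25A1, where it was not targeted, ACO1 was at 50.4 ± 0.954 and 42.9 ± 1.82 CPM (SD, n = 3).

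The knockdown went with small changes in many genes and large changes in few. At an adjusted p under 0.05, the threshold for a call throughout, 6008 of 16197 genes (37.1%) differed between siACO1 and siControl, 2876 of them higher (17.8%) and 3132 lower (19.3%). The median size of a called change was 0.34 on the log2 scale, and 1964 of the calls (32.7%) were under 0.25. Called changes of 2-fold or more numbered 594 (3.67%), 345 higher (2.13%) and 249 lower (1.54%). The 3 libraries of each group did not overlap for 3714 genes with siACO1 higher (22.9%) and 3789 with siACO1 lower (23.4%). Higher genes made up 47.9% of the calls under TMM scaling and 59.5% under library totals, with a median over all tested genes of 0.006 and 0.055. Without siACO1 replicate 3, 5321 of the 6008 calls remained, all in the same direction, 687 were lost and 844 others were gained. A gene that misses the threshold is not thereby shown to be the same in both groups.

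**Figure D2:**
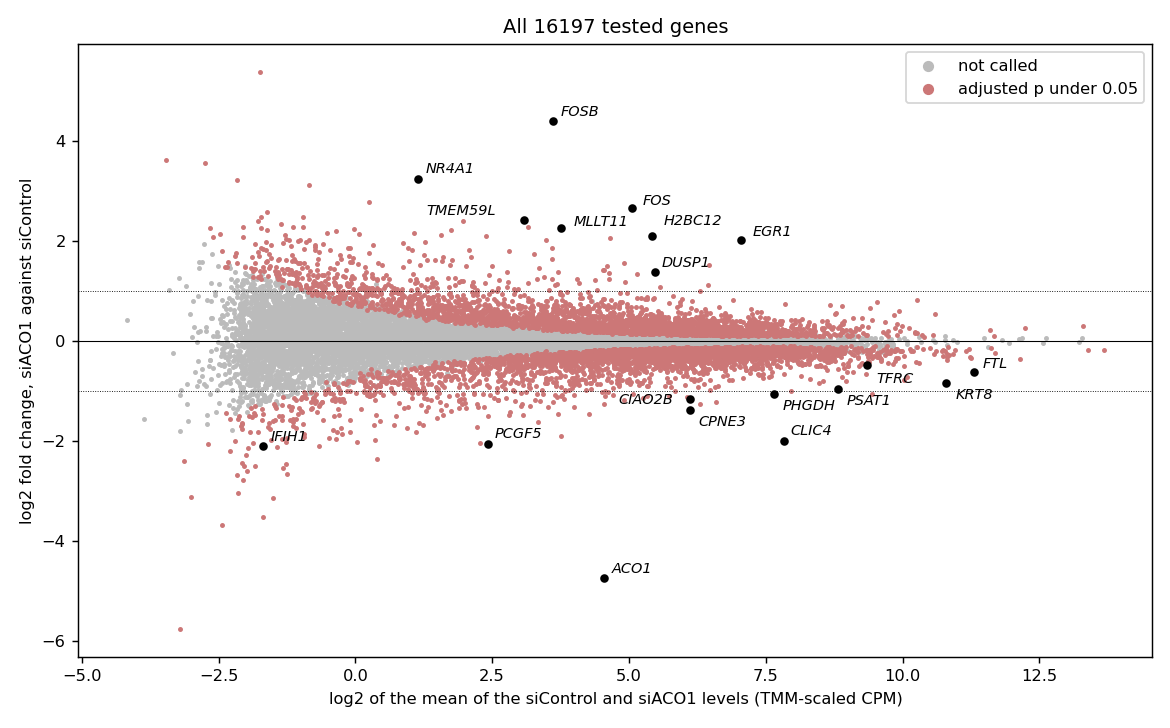
Log2 fold change of siACO1 against siControl (vertical axis) against the log2 mean level in TMM-scaled CPM (horizontal axis) for the 16197 tested genes, with calls in red and named genes in black. Dotted lines mark 2-fold changes, and most calls lie inside them, with 345 called genes at or above the upper line and 249 at or below the lower one.

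The 12 largest rises were picked among called genes of at least 5 CPM whose siACO1 libraries all lay above the controls. They were led by immediate early genes, transcription factors that are switched on within minutes of growth factor or stress signals. FOSB, a subunit of the AP-1 transcription factor, was at 1.03, 1.33 and 0.929 CPM in siControl and at 23.99, 27.7 and 18.8 CPM in siACO1 (log2 fold change 4.40, adjusted p 1.35e-11). FOS, its close relative, went from 9.99, 10.8 and 6.15 to 55.8, 60.4 and 56.3 CPM (log2 fold change 2.66, adjusted p 1.44e-07). EGR1, a zinc finger factor of the same class, went from 53.9, 58.9 and 44.2 to 215, 224 and 203 CPM (log2 fold change 2.02, adjusted p 9.72e-10). By that rule every siACO1 library was above every control for all 3 genes. Within siACO1, replicate 3 was lowest for FOSB and EGR1.

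Of 23 tested immediate early transcription factors 11 rose and 4 fell, with a median log2 fold change of 0.15, against 17.8% higher, 19.3% lower and a median of 0.006 over all genes. All list counts below are to be read against these shares, which cover weakly expressed genes too. Among the 9818 genes that averaged 5 CPM or more, 18.7% to 24.7% rose and 19.9% to 30.0% fell, depending on the class of transcript length. NR4A1, an orphan nuclear receptor whose count is uncertain because 27.3% of its 31-base stretches occur in other genes, rose from 0.411 ± 0.121 to 4.02 ± 0.61 CPM (log2 fold change 3.25). JUNB, another AP-1 subunit, named after its values were seen, rose by 1.22, whereas ATF3 and MAFF, also named after the fact, fell by 0.42 and 0.51. ZFP36, an RNA-binding protein that destabilises AU-rich transcripts and lies outside the list, was likewise picked after the fact and rose from 12.4 ± 0.385 to 33.5 ± 1.04 CPM. The list of feedback regulators, which the ERK kinase pathway induces to restrain itself, also holds the cytokine LIF, which is not such a regulator. Its genes went both ways, with 7 of 18 higher (38.9%) and 3 lower (16.7%, median 0.07). DUSP1, a phosphatase of stress and ERK-family kinases, rose from 26.2, 24.1 and 23.4 to 63.5, 64.8 and 63.3 CPM (log2 fold change 1.37). DUSP7, a phosphatase of ERK, fell from 113, 105 and 113 to 47.9, 45.8 and 45.5 CPM (-1.25). The libraries of the groups did not overlap for either phosphatase. LIF, a cytokine, fell by 0.84 and SPRED3, an inhibitor of ERK signalling, rose by 0.83.

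**Figure D3:**
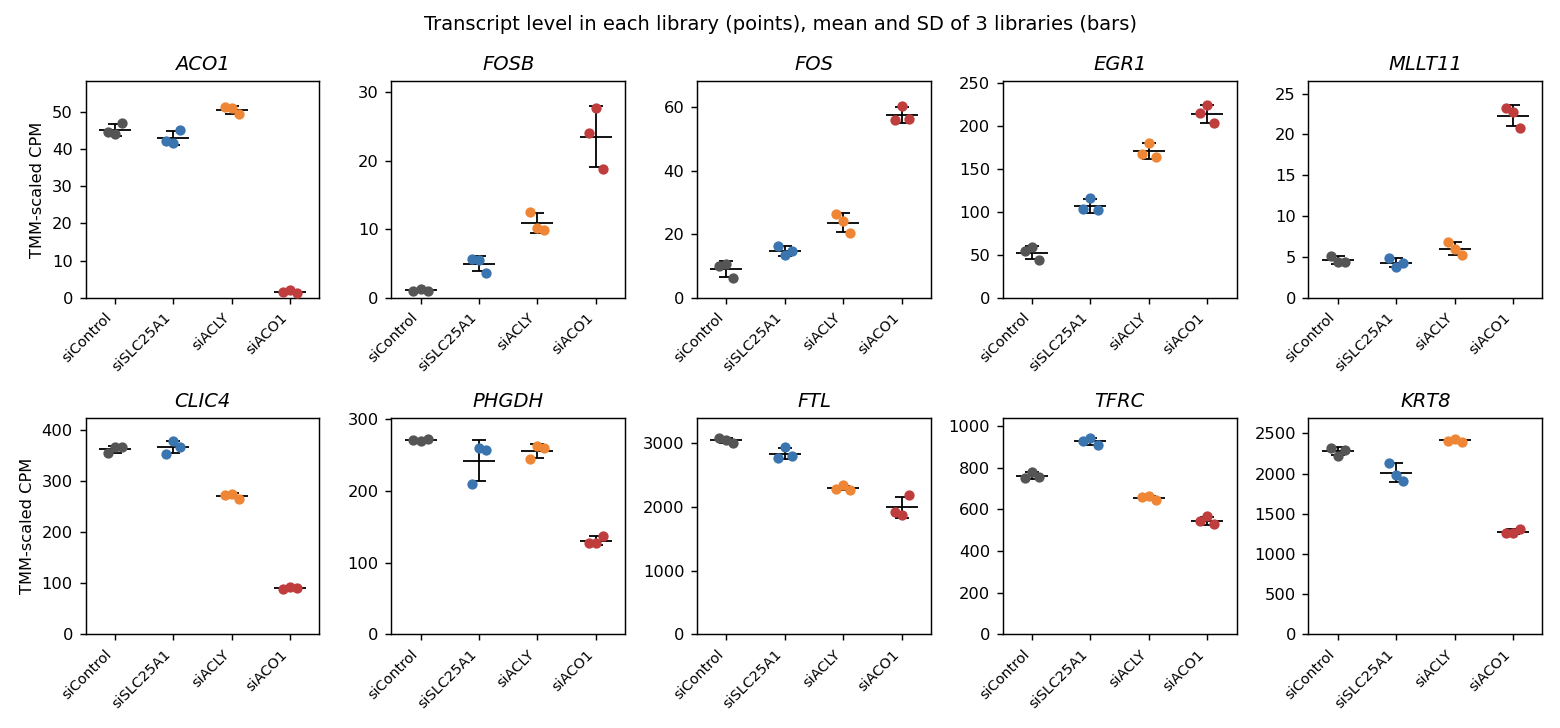
TMM-scaled CPM (vertical axes, from 0) of 10 genes in each of the 12 libraries (points) with the mean and SD of 3 libraries (bars). ACO1 is near 0 in siACO1 alone, and CLIC4, PHGDH and KRT8 are lowest in siACO1. FOSB, FOS and EGR1 are highest in siACO1 and are also above siControl in both other knockdowns.

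The remaining large rises came from several gene families. MLLT11, a small protein first found as a leukaemia fusion partner, went from 5.14, 4.33 and 4.43 to 23.3, 22.8 and 20.8 CPM (log2 fold change 2.26, adjusted p 6.56e-16). CAMK1G, a calcium- and calmodulin-dependent kinase, went from 3.18, 3.02 and 2.93 to 14.7, 15.02 and 14.7 CPM (2.27). As the choice of the rises required, every siACO1 library exceeded every control for both genes. TMEM59L, a membrane protein mostly known from brain, rose by 2.42 on the log2 scale, MEIS3, a homeobox factor with an uncertain count, by 2.40, PIANP, a neural membrane protein, by 2.22, PEG10, an imprinted gene derived from a retrotransposon, by 2.10, and CA11, a carbonic anhydrase relative, by 1.86. The last 2 of the 12 were histone genes, H2BC12 and H1-2.

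Several histone genes rose. H1-2, a linker histone, was at 11.4, 8.96 and 8.79 CPM in siControl and at 38.5, 38.2 and 45.6 CPM in siACO1 (log2 fold change 2.07, adjusted p 3.52e-09). H2BC12 went from 16.7, 16.1 and 15.7 to 66.2, 66.4 and 77.3 CPM (2.11), with 86.3% of its 31-base stretches also found in another gene, so that reads from other H2B genes could be counted there. Both genes, being among the largest rises, were by selection higher in all 3 siACO1 libraries than in any control. Among all 73 histone genes found by symbol, a group formed after these rises had been seen, 33 were tested. Of these, 18 rose (54.5%, against 17.8% of all genes), 0 fell and 15 were not called (median 0.87). Most histone transcripts of the replication-dependent kind lack a poly(A) tail, so a library of poly(A) RNA records only a small share of them.

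The 12 largest falls, picked by the same rule with all siACO1 libraries below the controls, were led by PCGF5 and CLIC4. Of these, 11 are described. PCGF5, a subunit of a Polycomb repressive complex that ubiquitinates histone H2A, fell from 7.87, 9.27 and 8.72 to 2.37, 1.53 and 2.38 CPM (log2 fold change -2.05, adjusted p 3.14e-12). CLIC4, an intracellular chloride channel protein (chr1:24745357-24844324, plus strand), fell from 355, 367 and 366 to 88.5, 93.4 and 91.9 CPM (-1.99, adjusted p 6.04e-25). SLC44A1, a choline transporter, fell from 15.4, 15.6 and 14.9 to 5.03, 5.01 and 4.91 CPM (-1.62). By that rule no siACO1 library reached the lowest control for any of these. TFCP2L1, a transcription factor of epithelial and stem cells, fell by 1.72, KAZN, a desmosome-associated protein with an uncertain count, by 1.48, SYNE3, which links the nucleus to intermediate filaments, by 1.47, and SPHK1, the kinase that makes sphingosine 1-phosphate, by 1.47. DSG2, a desmosomal cadherin, fell by 1.45, HKDC1, a hexokinase relative, by 1.45, SOX8, a transcription factor, by 1.41, and CPNE3, a calcium-dependent phospholipid-binding protein, by 1.38. Of 18 tested Polycomb repressive complex 1 genes 7 fell (38.9%) and 2 rose (11.1%), against 19.3% and 17.8% of all genes. Their median was -0.11, and -0.01 without siACO1 replicate 3.

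An siRNA can lower transcripts other than its target when the 3′ UTR matches its seed, bases 2 to 8 of the guide strand. The siRNA sequences are not in the labels, so 2 heptamers that an earlier look at these data had linked to lower expression in siACO1, AACTAAC and TCTACGT, were followed on the sense strand of the 3′ UTRs of GENCODE 29. Both also occur once in the ACO1 coding sequence, as do many others, since the 7466-base ACO1 transcript holds 33.0% of all 16384 heptamers. The sites in ACO1 and in 3 of the large falls that hold at least 1 of the heptamers are printed as examples. They are given on the sense strand, 5′ to 3′, with the heptamer in capitals, preceded by 14 bases and followed by 1.
ACO1 coding, first heptamer, chr9:32434676-32434697, plus strand: gctgctcgctacttAACTAACa
ACO1 coding, second heptamer, chr9:32433780-32433801, plus strand: tctggaattccaaaTCTACGTa
CLIC4 3′ UTR, first heptamer, chr1:24843402-24843423, plus strand: gattttatttttacAACTAACa
CLIC4 3′ UTR, second heptamer, chr1:24842333-24842354, plus strand: gcaaaaccagacttTCTACGTa
TFCP2L1 3′ UTR, first heptamer, chr2:121222804-121222825, minus strand: gcggggagtgggttAACTAACa
TFCP2L1 3′ UTR, second heptamer, chr2:121223726-121223747, minus strand: ctacctctttcttcTCTACGTt
SLC44A1 3′ UTR, first heptamer, chr9:105390941-105390962, plus strand: gaatataattatatAACTAACa
CPNE3 also carries 1 of each in its 3′ UTR, which are not printed. The other named falls, PCGF5, KAZN, SYNE3, SPHK1, DSG2, HKDC1 and SOX8, carry neither.

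Genes with either heptamer were lower across the table. Of 11628 tested genes with a 3′ UTR of at least 50 bases, the 726 with AACTAAC had a median log2 fold change of -0.132, with 42.4% called lower and 11.3% higher, and the 10902 without it had a median of -0.014, with 23.6% and 19.7%. The 216 genes with TCTACGT had a median of -0.168, with 44.9% called lower and 9.72% higher, against -0.018, 24.4% and 19.3% for the 11412 without it. More sites did not go with a larger shift. The 654 genes with 1 AACTAAC had a median of -0.14 (43.3% lower), and the 72 with 2 or more -0.102 (34.7%). For TCTACGT the medians were -0.171 in 213 genes with 1 and -0.048 in 3 genes with 2 or more. In UTRs of 2000 bases or more, which hold more of every heptamer, the medians were -0.107 with AACTAAC and -0.019 without, and -0.176 with TCTACGT and -0.025 without. The medians of the AACTAAC genes were -0.122, -0.106 and -0.154 in siACO1 replicates 1, 2 and 3 relative to the control mean, and those of the TCTACGT genes -0.161, -0.163 and -0.203, so each siACO1 library showed the shift. Either heptamer was present in 36 of 194 genes that fell at least 2-fold (18.6%), in 2 of 149 that rose at least 2-fold (1.34%) and in 7.85% of all 11628. None of the 12 largest rises with an annotated 3′ UTR held either. Among 15684 heptamers ranked by the difference in mean log2 fold change between genes with and without them, in units of its standard error, AACTAAC came out at position 1, its overlapping shift ACTAACA at 2 and TCTACGT at 6, and AT-rich heptamers filled positions 3 to 5. Against siACLY and siSLC25A1, AACTAAC was at positions 1 and 2, its shift at 3 and 47, and TCTACGT at 26 and 901. These heptamers were chosen on the same libraries, so the values describe them and carry no test, and whether any single fall came from an siRNA seed was not tested.

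**Figure D4:**
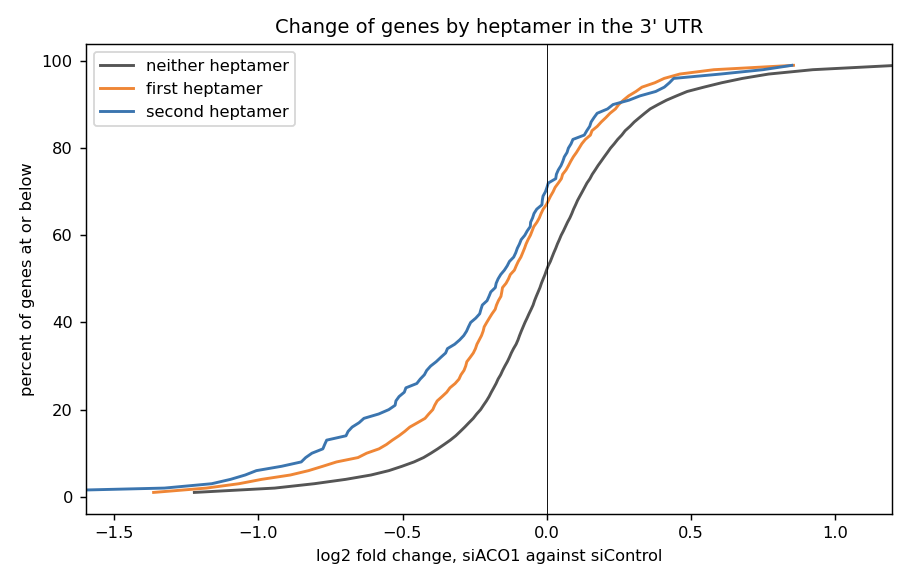
Cumulative percent of genes (vertical axis) at or below each log2 fold change of siACO1 against siControl (horizontal axis), for genes with neither heptamer (grey), with AACTAAC (first heptamer, orange) and with TCTACGT (second heptamer, blue) in the 3′ UTR. Both coloured curves lie left of the grey one, with medians of -0.132 and -0.168.

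Transcripts with an iron-responsive element, the RNA partners of the ACO1 protein, fell or did not pass the threshold. Of 9 members of the list 8 were tested, 5 fell and 0 rose (1 without siACO1 replicate 3), with a median log2 fold change of -0.21, against 19.3% lower over all genes. The elements found by script in GENCODE 29 (a loop CAGTGN whose last base is not G, flanked by 5 bases on each side that all pair, with an unpaired C before them) are printed for the ferritin chains and for the first of 4 in the transferrin receptor, as the sites the text refers to, with the loop in capitals.
FTH1 5′ UTR, chr11:61967574-61967602, minus strand: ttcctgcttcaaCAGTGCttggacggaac
FTL 5′ UTR, chr19:48965335-48965363, plus strand: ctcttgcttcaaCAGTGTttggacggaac
TFRC 3′ UTR, chr3:196050979-196051007, minus strand: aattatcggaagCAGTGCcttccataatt
By the same search 14 of 19659 protein-coding genes (0.0712%) held a match in the 5′ UTR and 83 (0.422%) in the 3′ UTR, and a match is a description, not a shown binding site.

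FTL, the light chain of the iron store ferritin, was at 3088, 3048 and 3011 CPM in siControl and at 1929, 1869 and 2186 CPM in siACO1 (log2 fold change -0.61, adjusted p 1.11e-11). TFRC, the receptor for transferrin-bound iron, was at 751, 779 and 756 CPM in siControl and at 544, 566 and 528 CPM in siACO1 (-0.48, adjusted p 3.67e-11). Both were lower in every siACO1 library than in any control, and siACO1 replicate 3 was nearest to the controls for FTL and farthest for TFRC. FTH1, the ferritin heavy chain, was at 864 ± 10.4 and 834 ± 16.3 CPM (SD, n = 3) and was not called (adjusted p 0.29). Its libraries did not overlap, and it was called lower with the correction for transcript length, with or without a replicate block. The counts of both ferritin chains are uncertain, since 33.3% of the 31-base stretches of FTL and 83.0% of those of FTH1 occur in other genes, many of them processed copies. SLC11A2, an importer of divalent metals, fell by 0.26 and EPAS1, a hypoxia-inducible factor at 1.90 CPM in siControl, by 0.80, a call that was lost without siControl replicate 2.

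The list of iron uptake, storage and export, which holds FTL, FTH1, TFRC and SLC11A2 as well, had 5 of 18 tested genes higher and 8 lower (median -0.08). These were 27.8% and 44.4%, against 17.8% and 19.3% of all genes. STEAP3, which reduces iron released from transferrin in endosomes, fell from 53.5, 50.8 and 53.04 to 26.3, 20.9 and 24.2 CPM (log2 fold change -1.14, adjusted p 1.25e-14), with no overlap. CP, the ferroxidase ceruloplasmin, rose by 1.24 from 0.91 ± 0.0146 CPM, with an uncertain count. IREB2, which encodes the second iron regulatory protein and is named after its values were seen, was at 70.6 ± 0.243 and 77.5 ± 1.81 CPM, a rise of 0.13 that lost its call in 4 of 15 other settings.

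Of 26 genes that build iron-sulfur clusters 6 were higher and 5 lower (23.1% and 19.2%), shares close to the 17.8% and 19.3% over all genes, and 4 were higher and 8 lower without siACO1 replicate 3. CIAO2B, a subunit of the complex that delivers clusters to cytosolic and nuclear proteins, fell from 98.05, 90.3 and 99.6 to 40.3, 41.5 and 47.7 CPM (log2 fold change -1.15, adjusted p 2.39e-15). Every siACO1 library lay below every control, and its change was the largest of the list. IBA57, a late assembly factor in mitochondria, fell by 0.53, HSPA9, the chaperone mortalin, by 0.39, and GLRX5, a cluster carrier with an uncertain count, rose by 0.34. In the citrate and TCA cycle list 8 of 25 genes fell (32%) and 2 rose (8%, median -0.09), and without siACO1 replicate 3 15 fell and 2 rose (-0.12). IDH3A, a subunit of the NAD-dependent isocitrate dehydrogenase, fell by 0.64, ME1, the cytosolic malic enzyme, by 0.39, SDHA, a succinate dehydrogenase subunit, by 0.27, and CS, citrate synthase, by 0.25, with uncertain counts for all of these but ME1. SLC25A1 was at 134 ± 0.691 and 126 ± 8.55 CPM and ACLY at 499 ± 7.55 and 505 ± 7.03 CPM, without a call for either (adjusted p 0.141 and 0.733), but SLC25A1 was called lower without siACO1 replicate 3 (-0.15).

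**Figure D5:**
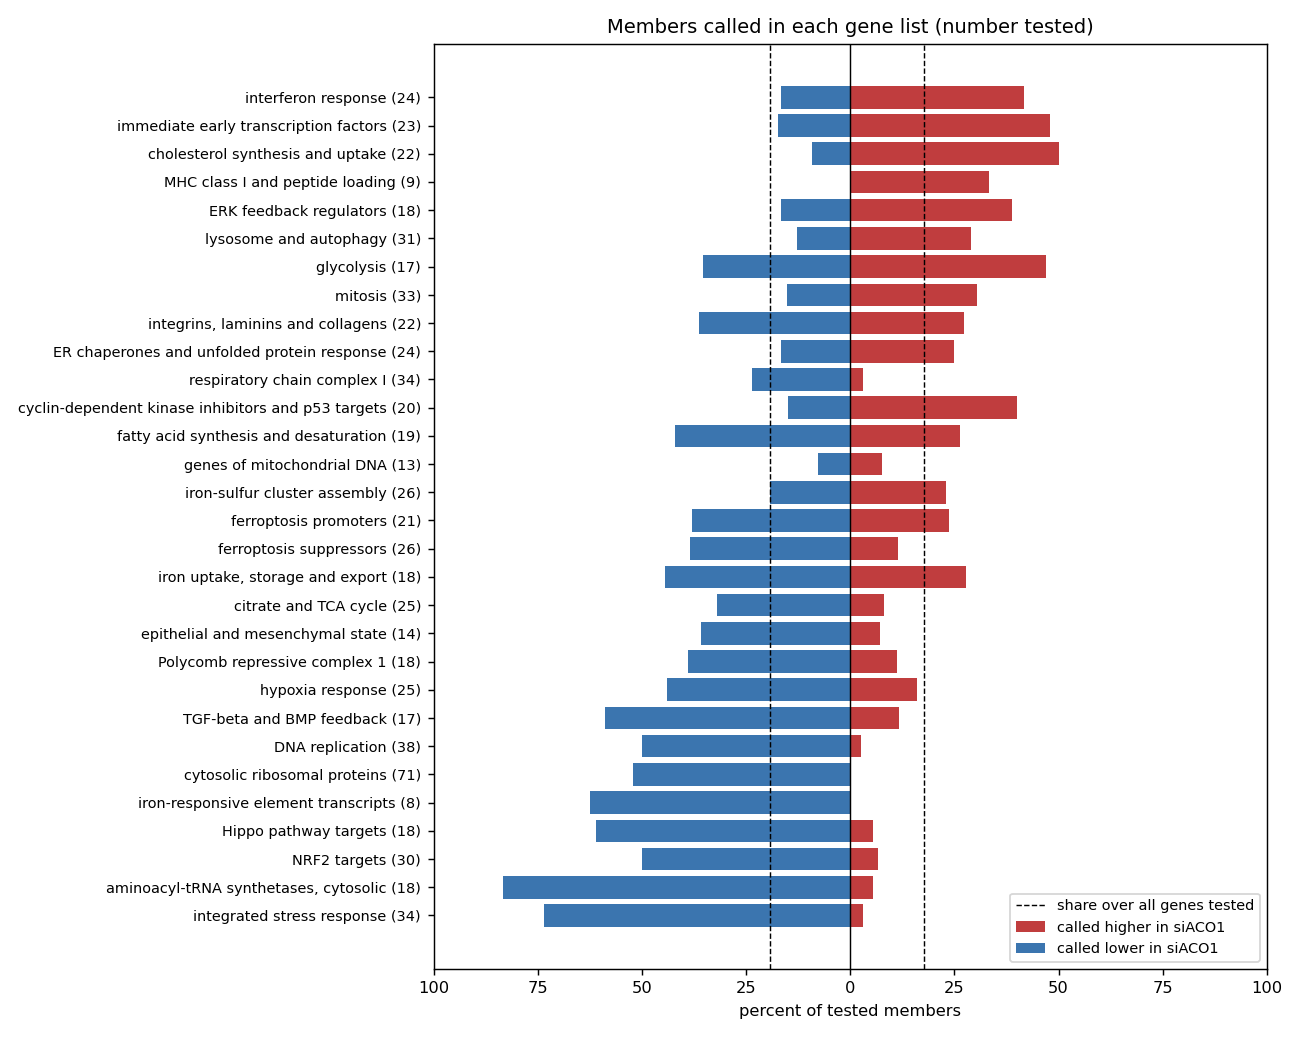
Percent of the tested members of each gene list called higher (red, to the right) or lower (blue, to the left) in siACO1, with the number tested in parentheses and the lists ordered by their median log2 fold change. Dashed lines mark the 17.8% and 19.3% of all genes called higher and lower, and the integrated stress response and aminoacyl-tRNA synthetases extend farthest to the lower side.

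The integrated stress response and the aminoacyl-tRNA synthetases were the lists with the largest shares of falls. In the former, the program by which the transcription factor ATF4 raises amino acid synthesis and transport, 25 of 34 tested genes fell and 1 rose (median -0.43), against 19.3% and 17.8% over all genes. PHGDH, the first enzyme of serine synthesis, was at 270.1, 269.8 and 272 CPM in siControl and at 128, 127 and 137 CPM in siACO1 (log2 fold change -1.05, adjusted p 8.04e-11). PSAT1, the next enzyme of that path, went from 619.5, 574 and 591 to 292, 296 and 333 CPM (-0.96, adjusted p 2.75e-13). Neither gene had an siACO1 library within the control range. ALDH1L2, a mitochondrial folate enzyme, fell by 0.99 and VLDLR, a lipoprotein receptor, by 0.95. ATF4 itself, named after its values were seen and with an uncertain count, fell from 344 ± 15.5 to 251 ± 17.1 CPM (-0.46), and TRIB3, an ATF4 target also picked after the fact, from 120.4 ± 8.98 to 98.6 ± 6.19 CPM.

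Of the 18 cytosolic aminoacyl-tRNA synthetases, which load amino acids onto tRNAs, 15 fell (83.3%, against 19.3% of all genes) and 1 rose (median -0.33). WARS1 went from 575, 596 and 598 to 353, 352 and 368 CPM (log2 fold change -0.72, adjusted p 9.21e-10), with no overlap between the groups. YARS1, LARS1 and GARS1 fell by 0.57, 0.48 and 0.43. Of 24 chaperones and regulators of the unfolded protein response in the endoplasmic reticulum 6 were higher and 4 lower (25% and 16.7%, against 17.8% and 19.3% of all genes), and 2 were higher and 5 lower without siACO1 replicate 3. DNAJB9, a co-chaperone of that response, rose by 0.43. CANX, SDF2L1 and SEL1L fell by 0.28, 0.25 and 0.23, and each of these calls was lost without at least 1 library, those of CANX and SEL1L without siACO1 replicate 3 among others.

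Targets of NRF2, the main activator of antioxidant genes, also fell. Of 30 tested, 15 were lower (50%) and 2 higher (6.67%), against 19.3% and 17.8% of all genes (median -0.28). NFE2L2, which encodes NRF2 and has an uncertain count because 20.9% of its exon bases overlap another gene, fell from 81.4, 78.9 and 81.1 to 53.9, 51.5 and 49.3 CPM (log2 fold change -0.64, adjusted p 2.35e-11). ABCC2, an exporter of glutathione conjugates, fell from 172, 170.2 and 168 to 107, 104 and 96.5 CPM (-0.73). The siACO1 libraries of both genes lay below all controls. OSGIN1 fell by 0.69 and TXNRD1, thioredoxin reductase, by 0.55. The lists share members, such as SLC7A11, which is in the stress response, NRF2 and ferroptosis lists.

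Ferroptosis, in which iron-dependent peroxidation of membrane lipids kills the cell, is the question in the title of the series. Of 26 tested suppressors 10 fell (38.5%) and 3 rose (11.5%, median -0.06). Of 21 promoters 8 fell (38.1%) and 5 rose (23.8%), with a median of -0.06, and -0.04 without siACO1 replicate 3. Over all genes 19.3% fell and 17.8% rose, so falls were larger in share in both lists and rises in the promoters alone. SLC7A11, the cystine importer, fell from 52.03, 48.98 and 50.2 to 37.1, 39.3 and 35.02 CPM (log2 fold change -0.44, adjusted p 1.33e-06). GCH1, which starts the synthesis of the antioxidant tetrahydrobiopterin, rose from 3.77, 3.52 and 4.11 to 9.86, 10.9 and 8.86 CPM (1.38, adjusted p 6.79e-11). Groups did not overlap for either gene. GPX4, the peroxidase that repairs lipid peroxides, was at 281 ± 5.04 and 296 ± 32.9 CPM and AIFM2, which regenerates reduced coenzyme Q, at 55.01 ± 2.23 and 59.1 ± 1.93 CPM, neither called (adjusted p 0.292 and 0.101). Both were called higher under library totals. The change of GPX4 was 0.07 on the log2 scale and -0.02 with siACO1 replicate 3 left out. ACSL4, which activates polyunsaturated fatty acids for membrane lipids, rose by 0.25, and CYB5R1, an electron donor to oxygen, by 0.50. NOX1 rose by 0.98 from 0.417 ± 0.0735 CPM and ALOXE3 fell by 0.76 from 1.79 ± 0.28 CPM; the call of the former was lost without siControl replicate 1 or 2 or siACO1 replicate 2, and that of the latter without siACO1 replicate 3, where the change was -0.55.

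Genes of cholesterol synthesis rose more often than they fell. In the list of cholesterol synthesis and uptake 11 of 22 tested genes rose (50%) and 2 fell (9.09%), against 17.8% and 19.3% of all genes (median 0.14). MSMO1, a demethylase of the sterol path, rose from 16.2, 16.9 and 16.4 to 27.6, 30.4 and 30.6 CPM (log2 fold change 0.84, adjusted p 8.82e-11), with no overlap. INSIG1, a protein of the sterol-sensing machinery, rose by 0.52, SC5D, a desaturase of the path, by 0.49, and SQLE, squalene epoxidase, by 0.48. In fatty acid synthesis and desaturation 8 of 19 genes fell (42.1%) and 5 rose (26.3%), with a median of -0.01 that was 0.04 under library totals. SREBF1, the main activator of fatty acid synthesis genes, fell from 218, 243 and 239 to 145, 143 and 137 CPM (-0.72, adjusted p 7.63e-13), below all controls in each library. MLXIPL, the glucose-responsive activator ChREBP, fell by 1.04 from 10.99 ± 0.289 CPM. ELOVL7 and ACACA fell by 0.98 and 0.66 from 0.907 and 3.07 CPM, and both calls were lost without siACO1 replicate 3 or siControl replicate 2, among others.

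Interferon response genes changed in both directions, with 10 of 24 higher (41.7%) and 4 lower (16.7%), against 17.8% and 19.3% of all genes (median 0.17). IFI6, an interferon-induced protein of mitochondria, rose from 3.32, 4.08 and 3.79 to 8.45, 8.91 and 8.6 CPM (log2 fold change 1.22, adjusted p 6.93e-08). IFIH1, a sensor of double-stranded RNA, fell from 0.558, 0.527 and 0.429 to 0.121, 0.163 and 0.0642 CPM (-2.10, adjusted p 0.0003), from few counts. The groups did not overlap for either. ISG20, an exonuclease, rose by 0.91 from 1.29 CPM, and HERC5, a ligase for the ubiquitin-like ISG15, fell by 0.84 from 1.44 CPM, a call lost without siControl replicate 1. Of 9 tested genes of MHC class I and peptide loading 3 rose (33.3%) and 0 fell. B2M, the invariant light chain, rose by 0.25. NLRC5, their transcriptional activator, rose by 0.38 (lost without siControl replicate 1 or siACO1 replicate 1) and CALR, a loading chaperone, by 0.18 (lost without siACO1 replicate 3).

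Many DNA replication genes fell. Of 38 tested, 19 fell (50%) and 1 rose (2.63%), against 19.3% and 17.8% of all genes (median -0.19). CDC6, which loads the replicative helicase, went from 86.2, 91.4 and 88.7 to 56.8, 60.4 and 56.4 CPM (log2 fold change -0.62, adjusted p 5.5e-11). MCM5, a subunit of that helicase, went from 139, 148 and 144 to 97.7, 100.4 and 94.5 CPM (-0.56, adjusted p 2.58e-05). Control libraries all lay above siACO1 libraries for both genes. GINS3, a helicase cofactor, fell by 0.62 and POLA1, the polymerase that starts strands, by 0.56. Of 33 mitosis genes 10 rose (30.3%) and 5 fell (15.2%, median 0.04), and without siACO1 replicate 3 12 rose and 6 fell (0.09). ANLN, the cytokinesis scaffold anillin, had the largest change of the called members, from 476 ± 13.2 to 274 ± 11.3 CPM (-0.80). CDC25C and PTTG1 rose by 0.35 and 0.30, and TTK, a spindle checkpoint kinase, fell by 0.27. Among inhibitors of cyclin-dependent kinases and p53 targets 8 of 20 rose (40%) and 3 fell (15%), with a median near 0 whose sign changed between settings. Rises included the inhibitors CDKN1C (1.58, from 0.464 CPM), CDKN2D (0.54) and CDKN1B, which rose from 95.5 ± 4.6 to 129.9 ± 5.87 CPM.

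KRT8, KRT18 and KRT19 were lower. KRT8, a keratin of simple epithelia, was at 2318, 2219 and 2297 CPM in siControl and at 1263, 1264 and 1313 CPM in siACO1 (log2 fold change -0.83, adjusted p 1.61e-15). Its partner KRT18 was at 1341, 1299 and 1334 and 759.8, 750.2 and 812 CPM (-0.78), and both counts are uncertain because 55.5% and 67.5% of their 31-base stretches occur in other genes, including processed copies. KRT19, which has no such limit, went from 85.8, 88.5 and 91.2 to 47.2, 52.4 and 56.5 CPM (-0.76, adjusted p 1.84e-12). For all 3 keratins the highest siACO1 library was under the lowest control. CLDN1, a tight junction protein, fell by 0.86. In the whole list of epithelial and mesenchymal genes 5 of 14, the 3 keratins among them, fell (35.7%) and 1 rose (7.14%), against 19.3% and 17.8% of all genes. The median was -0.11, between -0.19 without siACO1 replicate 3 and -0.04 without siControl replicate 2. VIM, the mesenchymal filament protein of the list, was not called.

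Targets of the Hippo pathway, which senses cell contact and tension, fell in 11 of 18 cases and rose in 1 (median -0.26). These were shares of 61.1% and 5.56%, against 19.3% and 17.8% of all genes. CCN1, a secreted matrix protein, fell from 93.1 ± 10.2 to 66.9 ± 2.96 CPM (-0.48), and AMOTL2, a junction scaffold, from 179.9 ± 8.26 to 130.4 ± 5.64 CPM (-0.47). NUAK2 and AMOTL1 fell by 0.64 and 0.51. In the feedback list of TGF-beta and BMP signalling 10 of 17 fell (58.8%) and 2 rose (11.8%, median -0.18). TGFBI, a matrix protein, fell by 0.67, SKIL, a repressor of the pathway, by 0.56, and SMAD6, an inhibitor whose libraries overlapped, by 0.51. Integrins, laminins and collagens were split, with 6 of 22 higher (27.3%) and 8 lower (36.4%). LAMB3, a laminin chain of basement membranes, rose from 0.614, 1.03 and 0.643 to 3.9, 2.86 and 3.63 CPM (2.16, adjusted p 6.9e-09), and COL5A1 rose by 1.02, whereas COL4A1 fell by 0.88 and ITGA6 by 0.57.

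Hypoxia response genes fell in 11 of 25 cases (44%) and rose in 4 (16%), against 19.3% and 17.8% of all genes. Their median was -0.11, and -0.17 without siACO1 replicate 3, down to -0.20 without siControl replicate 2. NDRG1, a stress and iron chelation responsive gene, fell from 12.03, 11.9 and 10.9 to 6.08, 6.24 and 5.01 CPM (log2 fold change -1.01, adjusted p 2.4e-09). HK2, an inducible hexokinase, fell from 173, 161 and 174 to 115, 118 and 106 CPM (-0.58). Both were below all controls in each siACO1 library, whereas SLC2A3, a glucose transporter with an uncertain count, rose by 0.79. Of 17 glycolysis genes 8 rose (47.1%) and 6 fell (35.3%), and without siACO1 replicate 3 4 rose and 7 fell. ALDOC and ENO2, less widespread forms of aldolase and enolase, rose by 0.76 and 0.56, and PFKP, a phosphofructokinase, fell by 0.45.

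The counts of ribosomal protein genes depended on the library that followed transcript length. These short transcripts encode the proteins of the cytosolic ribosome, and 37 of 71 fell (52.1%, against 19.3% of all genes) and 0 rose (median -0.20). Without siACO1 replicate 3 57 fell (median -0.30), and with a correction for length 48 fell (-0.24). RPL12, RPL18, RPSA and RPS27A fell by 0.49, 0.45, 0.43 and 0.41, with uncertain counts for all 4 because of processed copies. Of the 34 subunits of respiratory complex I that nuclear genes encode 8 fell (23.5%, against 19.3% of all genes) and 1 rose (median near 0), and without siACO1 replicate 3 12 fell and 0 rose (-0.07). NDUFC1 fell by 0.24 and NDUFS7 by 0.23, the latter with an uncertain count, and the calls of NDUFA13 (-0.45, uncertain) and NDUFA8 (-0.17) were lost without siACO1 libraries. Of the 13 genes of mitochondrial DNA 11 were not called (3 fell without siACO1 replicate 3), MT-ND2 rose by 0.22 (0.13 without that library) and MT-CO1 fell by 0.17, both with uncertain counts owing to nuclear copies. Among 31 lysosome and autophagy genes 9 rose (29%, against 17.8% of all genes) and 4 fell (12.9%, median 0.05). Without siACO1 replicate 3 6 rose and 5 fell (0.02). The named members had rises of 0.51 for GABARAPL1, 0.35 for GLA and 0.32 for BECN1 (uncertain) and a fall of 0.29 for CTSL.

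Direct contrasts in the same edgeR fit asked where siACO1 differed from the other knockdowns, without the controls. Against siACLY 6823 genes were called (42.1%), 3354 higher in siACO1 (20.7%) and 3469 lower (21.4%), and 848 by at least 2-fold (5.24%), 276 higher (1.7%) and 572 lower (3.53%). Against siSLC25A1 also 6823 were called (42.1%), 3287 higher (20.3%) and 3536 lower (21.8%), and 879 by at least 2-fold (5.43%), 521 higher (3.22%) and 358 lower (2.21%). Genes called in the same direction against siControl, siACLY and siSLC25A1 numbered 1282 higher in siACO1 (7.92%) and 1537 lower (9.49%), counts that share the siACO1 libraries and serve as a description. The genes named next were picked for the largest changes among these, so standing apart from every other group was a condition of their choice. MLLT11 led the higher ones that were at 5 CPM or more along with H1-2, and was at 22.3 ± 1.3 CPM in siACO1 against 6.00 ± 0.786 in siACLY and 4.31 ± 0.532 in siSLC25A1 (adjusted p 1.19e-14 and 2.84e-16). CA11, KRBA2 (a gene with an uncertain count), H2BC12 and FOS completed these 6. CLIC4 was at 91.3 ± 2.51 CPM against 271 ± 4.89 in siACLY and 367 ± 11.9 in siSLC25A1 (log2 differences -1.57 and -2.01). SYNE3, SPHK1, SLC44A1 and CPNE3, picked the same way, had log2 differences of -1.37 or lower from every other group.

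Several genes of the groups above also differed from both other knockdowns. PHGDH was lower in siACO1 than in siACLY and siSLC25A1, with log2 differences of -0.97 and -0.89 (adjusted p 1.78e-10 and 6.28e-10). The differences of CIAO2B were -1.17 and -1.11, and those of KRT8 -0.92 and -0.65. For FOSB the level in siACO1 was above that in siACLY (10.9 ± 1.47 CPM) and siSLC25A1 (4.95 ± 1.1 CPM), with log2 differences of 1.09 and 2.24 (adjusted p 6.66e-06 and 4.39e-09). Both of those groups were themselves above the siControl mean of 1.10 CPM. Of the 23 tested immediate early transcription factors, 6 were higher and 9 lower than in siACLY (median -0.06), against 20.7% and 21.4% of all genes. Relative to siSLC25A1, 11 were higher and 8 lower (median 0.03), against 20.3% and 21.8%. Other changes were not told apart from siACLY. GCH1 stood at 9.86 ± 0.999 CPM in siACO1 and 9.75 ± 0.418 CPM in siACLY (log2 difference 0.01, SE 0.10, adjusted p 0.944), and MSMO1, CDC6 and MCM5 differed from siACLY by -0.02, -0.01 and -0.04 (adjusted p 0.818, 0.936 and 0.742) but from siSLC25A1 by 0.86, -0.73 and -0.68. TFRC was lower in siACO1 than in siACLY and siSLC25A1 (log2 differences -0.26 and -0.76), and so was FTL (-0.21 and -0.51).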

How the data were processed

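Per the labels' protocols, poly(A) transcripts of DNase-treated RNA were captured on oligo-dT beads, fragmented and reverse-transcribed with random primers. The submitters' processing notes name CASAVA, FastQC, Trim Galore, STAR 2.7.0e and DESeq2 and the builds GRCh38 and GRCm39, with no role or order. The counting tool, the annotation release and the strand setting are not given in the sources used here. The authors deposited raw read counts, whole numbers per gene and library without normalization.

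Genes were filtered with filterByExpr at its defaults (16197 of 70116 kept), and the counts of all 12 libraries were fitted with edgeR 4.0.16 in R 4.3.3 as 4 groups, with TMM scaling, robust quasi-likelihood F tests (two-sided) and Benjamini-Hochberg adjustment, leaving 8 residual degrees of freedom and a common biological coefficient of variation of 4.89%. Every adjusted p is from this fit. Levels are TMM-scaled CPM per library, or mean ± SD of 3 libraries. Symbols matched 62700 identifiers. Coordinates, lengths and UTRs are those of GENCODE 29 on GRCh38, with 1 representative transcript per gene, and may differ from the annotation behind the counts. A count is called uncertain if at least 20% of a gene's exon bases overlap another gene or at least 20% of its 31-base stretches occur in other genes (32 of 161 named genes). On simulated data the fit called 80.6% of 98 genes changed 2-fold, 58.2% of 98 changed by 0.5 (log2) and 7 of 15693 left unchanged. The simulated libraries held few changed genes and no deviation with transcript length, so these shares need not hold in this experiment.

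The members and the 32 gene lists were chosen with earlier results of these data known. Named genes are ACO1, SLC25A1, ACLY, GPX4, SLC7A11, ACSL4 and AIFM2, the tested transcripts with an iron-responsive element, the 12 largest rises and falls among called genes with a symbol, a mean of 5 CPM or more in the group where they are higher and libraries that do not overlap, the 4 called members with the largest change in each list, and the 6 largest differences in each direction that set siACO1 apart from all 3 other groups. Some of these genes are not reported here. Other names are said to have been picked after their values were seen.
Alternatives tried were DESeq2 1.42.0, library totals, median-of-ratios size factors, no filter or at least 10 counts in every library, the libraries of siControl and siACO1 alone, a replicate block, a correction for transcript length, both together, a 2-fold minimum and leaving out each library.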

Additional observations from a re-analysis of the deposited data

How the results depend on the processing

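Counts of calls in siACO1 against siControl lay between 5097 and 6195 when each siControl or siACO1 library was left out (2356 to 2883 higher, 2741 to 3312 lower). Against siACLY they lay between 6132 and 6870 (3043 to 3406 and 3089 to 3464), against siSLC25A1 between 6293 and 6693 (3009 to 3203 and 3284 to 3544), and for genes apart from all 3 other groups between 1112 and 1266 higher and between 1380 and 1614 lower. DESeq2 called 5707 genes against siControl. A 2-fold minimum left 594, 345 and 249 genes against siControl (all, higher, lower), 848, 276 and 572 against siACLY, 879, 521 and 358 against siSLC25A1, and 69 higher and 104 lower apart from all groups, since this minimum keeps only larger changes. The labels do not say whether replicate numbers pair the samples. Correlations of same-numbered deviations were -0.053, 0.066 and -0.054, which cannot settle this with 3 libraries a group. A replicate block gave 6093 calls. With the length correction 6305 genes were called, 5718 of them shared with the 6008. Under library totals the heptamer medians were -0.083 and -0.12, and without siACO1 replicate 3 they were -0.128 and -0.151. Of 150 called named genes 135 kept their call in all 15 other settings, 15 lost it in at least 1 and 0 changed direction. Of 495 recomputed list medians 27 had the other sign, in 5 lists (fatty acid synthesis, inhibitors of cyclin-dependent kinases, integrins, complex I and mitochondrial DNA), and none of the 18 lists with a median of at least 0.1 in size changed sign. Of the named genes under 2 CPM in siControl, EPAS1, NOX1, ALOXE3, ELOVL7 and HERC5 lost a call in at least 1 setting, and FOSB, NR4A1, IFIH1, LAMB3, CP and CDKN1C in none.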

Other observations

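Metallothioneins, small cysteine-rich proteins that bind zinc and copper, were higher in siACO1. This group was formed by symbol after its values had been seen. All 5 tested members rose, with a median log2 fold change of 0.66, against 17.8% of all genes called higher. MT2A was at 1300, 1224 and 1215 CPM in siControl and at 1676, 1688 and 2127 CPM in siACO1 (log2 fold change 0.55, adjusted p 0.00367, edgeR). MT1E went from 539, 523 and 507 to 757, 753 and 972 CPM (0.66, adjusted p 0.000223) and MT1M from 16.1, 14.6 and 14.9 to 39.9, 41.97 and 52.3 CPM (1.56, adjusted p 8.83e-14). For all 3 genes siACO1 replicate 3 was the highest library, and without it the log2 fold changes were 0.43, 0.53 and 1.43. MT1M was also above siACLY and siSLC25A1, with log2 differences of 1.93 and 1.26.

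PPARG, a nuclear receptor of lipid storage, also named after its values were seen, fell from 11.97, 12.02 and 10.7 to 5.15, 4.06 and 4.94 CPM (log2 fold change -1.30, adjusted p 7.72e-10), without overlap. It was at 4.82 ± 0.709 CPM in siACLY, where the log2 difference from siACO1 was -0.01 (adjusted p 0.951), and at 11.3 ± 1.18 CPM in siSLC25A1 (-1.26). Some genes that most cells express had almost no counts in any group, among them RPS2 at 0.243 CPM and FDFT1 at 0.265 CPM in siControl, so their lack of a call carries no information on their expression.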
